A study of Mus musculus with 12 samples.

Results

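The genes described here are the 83 protein-coding genes of the mouse whose symbols name a protein of the cytosolic ribosome, out of 52636 genes in the files. They were chosen by symbol alone: Rpl or Rps with a number and at most a short suffix, together with Rpsa, Rplp0, Rplp1 and Rplp2, and without symbols ending in -ps and without the Rps6k kinases. By role they are 31 small subunit genes, 43 large subunit genes, 3 genes of the stalk and 6 paralogs named after another member (Rpl3l, Rpl7l1, Rpl10l, Rpl22l1, Rpl39l and Rps27l). Rps4l, which the same pattern would take, is a transcribed pseudogene in GENCODE M21 and was left out. Of the 83 genes, 81 passed the filter on low counts and were tested among 24065 genes. Total RNA depleted of ribosomal RNA had been sequenced from snap-frozen ductal adenocarcinomas of the pancreas in KPC mice, which are bred to develop such tumours in their own pancreas. The mice carried both copies of Cdh11 (KPC/CDH11+/+, called +/+ below) or 1 copy (KPC/CDH11 +/-, called +/- below), on a background given as C57BL/6; 129 for every mouse. They were untreated or had been treated with gemcitabine, a deoxycytidine analogue that blocks DNA synthesis, with 3 mice in each of the 4 groups. The alleles behind the name KPC, the age and sex of the mice, and how much gemcitabine was given and when, were not given in the sources used here. The study asked what Cdh11, a cadherin of fibroblasts and other mesenchymal cells, does in such tumours and in their response to gemcitabine.

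A ribosome joins a small subunit, which reads the mRNA, to a large subunit, which forms the peptide bond, and each ribosomal protein is usually present in a single copy per ribosome. The proteins are therefore made in balanced amounts, and their mRNAs are among the most abundant in growing cells, pancreatic tumour cells included. Most of these mRNAs begin with a run of pyrimidines, the terminal oligopyrimidine or TOP motif, through which mTOR signalling controls how strongly they are translated. The genes have also left many processed pseudogenes in the mouse genome, copies of the spliced mRNA that can be nearly identical to it. A short read from such an mRNA can match the gene and its copies equally well.

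The start sites show the first of these features. RefSeq start sites on GRCm38.p6 were found for 63 of the 83 genes. A pyrimidine tract, taken as a C followed by 4 or more pyrimidines (C or T) on the sense strand and starting within 10 bases of the start site, stood at 39 of the 63 (61.9%). Of all 27025 genes with a RefSeq promoter 9297 (34.4%) had it. No other motif was searched. The 6 sequences below run from 40 bases before to 15 bases after the start site, with the tract in capitals where it was found, and belong to genes that recur in the comparisons. Rps18 lies at chr17:33955651-33955705 on the minus strand, Rps27 at chr3:90213634-90213688 on the minus strand, Rpl18 at chr7:45718031-45718085 on the plus strand and Rpl22l1 at chr3:28805468-28805522 on the plus strand. Rps13, at chr7:116334176-116334230 on the minus strand, and Rps25, at chr9:44407674-44407728 on the plus strand, had no such tract starting within 10 bases of the start site. Pyrimidine runs further upstream, which both printed sequences hold, were not counted. The lack of a counted tract says nothing about the regulation of their mRNAs.
Rps18: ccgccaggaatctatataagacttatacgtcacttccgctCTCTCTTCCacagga
Rps27: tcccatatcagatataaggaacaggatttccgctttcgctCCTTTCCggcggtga
Rpl18: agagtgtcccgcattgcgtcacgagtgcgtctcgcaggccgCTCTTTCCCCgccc
Rpl22l1: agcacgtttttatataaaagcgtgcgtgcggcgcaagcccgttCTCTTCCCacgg
Rps13: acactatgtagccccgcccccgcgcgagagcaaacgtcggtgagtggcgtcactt
Rps25: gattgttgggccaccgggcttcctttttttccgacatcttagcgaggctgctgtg

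The second feature sets how far a count of a single gene can be read. In all, 605 other annotated genes matched a transcript of the ribosomal protein genes at 95% identity or more over at least 50% of their own transcript. Of these copies 560 were processed pseudogenes and 10 were annotated as protein-coding. Of the 83 genes 79 had at least 1 copy, with a median of 5 and a maximum of 58, for Rpl21. Rps27l, Rpl3l and Rpl39l were among those without a copy. The pairs of sequences below are stretches of 60 coding bases from GENCODE M21 in which gene and copy can be told apart, with the bases that differ in capitals. They are shown because these are 4 of the 5 genes whose share of the counts varied most between libraries. Rps18 (chr17:33951999-33956001, minus strand) and Gm10260 (chr13:97760072-97760632, minus strand) differed at 5 of 545 aligned bases, and coding bases 324 to 383 of Rps18 are shown. Rps13 (chr7:116331505-116334195, minus strand) and Rps13-ps1 (chr8:87047689-87048226, plus strand) differed at 2 of 522, both within coding bases 390 to 449. Rpl34 (chr3:130726831-130730398, minus strand) and Rpl34-ps1 (chr6:71124610-71124963, plus strand) differed at 2 of 354, with coding bases 102 to 161 shown. Rps3a1 (chr3:86137940-86142702, minus strand) and Rps3a2 (chr14:88123017-88123808, minus strand) differed at 4 of 792, with coding bases 626 to 685 shown.
Rps18: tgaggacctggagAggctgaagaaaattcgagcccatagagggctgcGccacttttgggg
Gm10260: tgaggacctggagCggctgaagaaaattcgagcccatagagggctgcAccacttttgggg
Rps13: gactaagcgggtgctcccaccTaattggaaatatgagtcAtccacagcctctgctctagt
Rps13-ps1: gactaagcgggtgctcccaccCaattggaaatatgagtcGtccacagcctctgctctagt
Rpl34: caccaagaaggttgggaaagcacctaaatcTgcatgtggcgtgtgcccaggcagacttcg
Rpl34-ps1: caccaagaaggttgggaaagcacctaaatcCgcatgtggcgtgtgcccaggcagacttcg
Rps3a1: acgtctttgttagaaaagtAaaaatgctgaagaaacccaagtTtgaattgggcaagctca
Rps3a2: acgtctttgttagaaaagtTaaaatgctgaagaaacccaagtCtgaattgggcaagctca

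Each library held between 39388328 and 56559413 expected counts, and log2 fold changes below come from edgeR's quasi-likelihood model with its standard error (SE). Cdh11 had 10221, 12258 and 8374 counts in untreated +/+ tumours and 6759, 5326 and 3710 in untreated +/- tumours. Its log2 fold change was -0.998 (95% interval -1.81 to -0.18, adjusted p = 0.329 in edgeR's quasi-likelihood test with Benjamini-Hochberg adjustment). In gemcitabine-treated mice Cdh11 did not follow the label, with 6505, 2675 and 5116 counts in +/+ tumours and 5376, 6073 and 3588 in those labelled +/- (log2 fold change -0.02, 95% interval -0.83 to 0.79). Mean Cdh11 levels were 224, 112, 109 and 107 CPM (counts scaled to library size) in untreated +/+, untreated +/-, treated +/+ and treated +/- tumours. The treated +/+ tumours were thus the ones below the untreated level of their label (log2 fold change -1.04, 95% interval -1.86 to -0.225, edgeR adjusted p = 0.559). Whether treatment or labels lie behind this was not tested. Treated tumours of +/- label are called "labelled +/-" below, and the treated +/+ label is no more certain. All 10 markers of duct epithelium had counts, with a summed level of 3711 to 8968 CPM in the 12 libraries. Xist was high in 2, 1, 3 and 0 of 3 libraries of the untreated +/+, untreated +/-, treated +/+ and treated labelled +/- groups, so in treated mice genotype and sex cannot be told apart. In bulk tumours fewer cells of a type and less RNA per cell cannot be told apart either.

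The ribosomal protein genes took 1.55%, 1.75% and 1.88% of all counts in untreated +/+ mice 1, 2 and 3. They took 2.76%, 1.78% and 3.18% in untreated +/- mice, 1.88%, 2.94% and 1.93% in treated +/+ mice and 1.89%, 2.37% and 2.28% in treated labelled +/- mice. Group means ± SD were 1.73 ± 0.17%, 2.57 ± 0.72%, 2.25 ± 0.60% and 2.18 ± 0.26% (n = 3 each). The untreated +/+ tumours were thus low and close together, while +/- mouse 2 lay within their range and mice 1 and 3 well above it. With the copies added the shares were 2.06%, 2.31% and 2.497% in untreated +/+ tumours and 3.499%, 2.27% and 4.06% in untreated +/- tumours, in the same order of libraries.

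**Figure D1:**
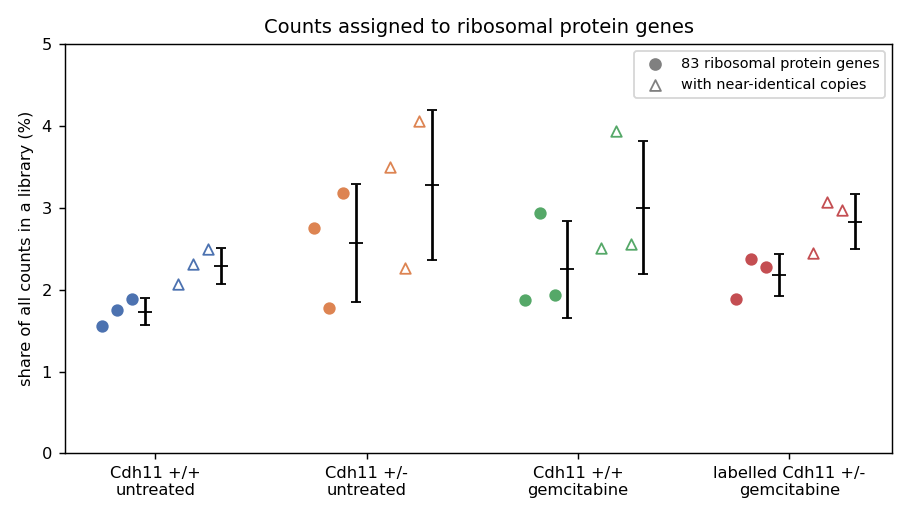
The share of all counts of a library, in percent, that fell on the 83 ribosomal protein genes (circles) and on these genes with their near-identical copies (triangles), 1 symbol per mouse, with the mean and SD of 3 mice as bars. Untreated +/+ tumours sit between 1.55% and 1.88%, and the 3 highest circles are +/- mice 1 and 3 without treatment and +/+ mouse 2 with gemcitabine.

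These 3 libraries stood apart across the list. Of the 81 tested genes, 57 had untreated +/- mouse 1 among their 3 highest libraries, 65 had untreated +/- mouse 3 and 75 had treated +/+ mouse 2, whereas each other library was there for 0 to 11 genes. The median log2 CPM of the 81 genes was 8.30, 8.38 and 8.36 in these 3 libraries and lay between 7.34 and 7.86 in the other 9. Another RNA was high in them too: the long non-coding RNA gene Gm26917 took 2.37%, 2.23% and 3.33% of their counts, against 0.320% to 2.13% in the other libraries. The 10 fibroblast markers summed to 5524, 4413 and 6643 CPM there, against 11270, 14760 and 15730 CPM in untreated +/+ tumours and 4876 to 15140 CPM in the other 6 libraries. The part of either in the ribosomal protein values was not tested, and each comparison is given with the value without the library that moves it most.

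**Figure D2:**
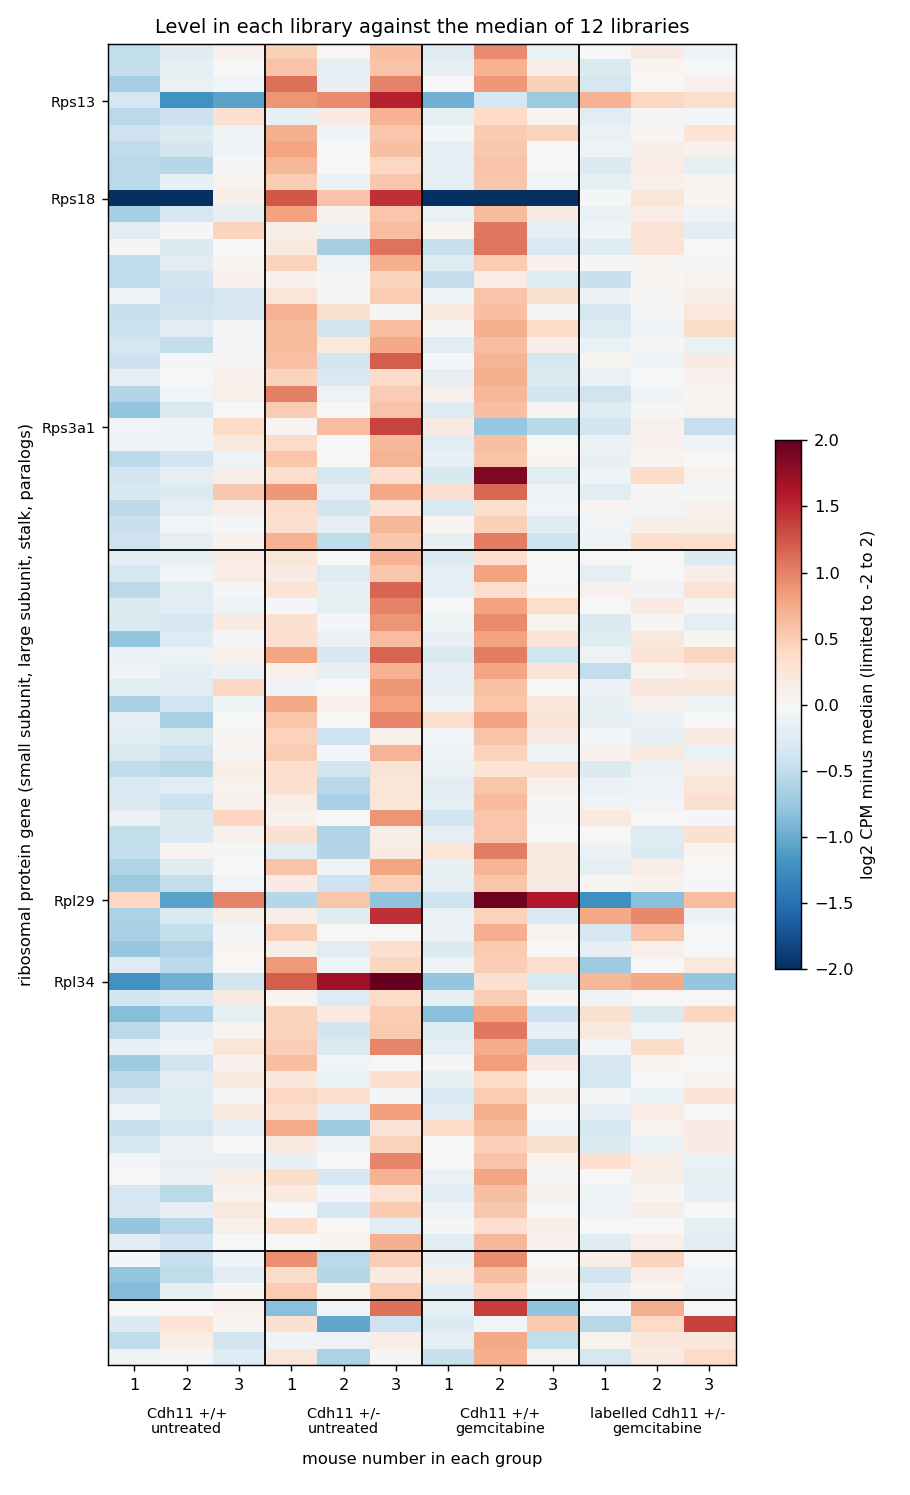
Level of each of the 81 tested ribosomal protein genes (vertical axis, by role, with 5 genes labelled) in each of the 12 libraries (horizontal axis), as log2 CPM minus the gene's median over the 12 libraries, with the colour limited to -2 and 2. Red columns mark untreated +/- mice 1 and 3 and treated +/+ mouse 2, and Rps13, Rps18, Rpl34, Rps3a1 and Rpl29 break the pattern of their columns.

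Within a library the members kept close to each other. As measured, the median SD between mice of a group was 0.36 on the log2 CPM scale for the 81 genes. It was 0.49 for all genes tested, which were not matched to the list by level. Once the library's median over the list was taken off, the SD of the 81 genes was 0.20, a step with no counterpart for all genes. After removal of the library median 7 genes had an SD over the 12 libraries above 0.5. They were Rps18 (1.72), Rpl29 (1.09), Rpl34 (0.96), Rps13 (0.80), Rpl3l (0.62), Rps3a1 (0.61) and Rpl22l1 (0.60). With the counts of the copies added the same SD was 0.18 for Rps18, 0.34 for Rpl29, 0.15 for Rpl34, 0.15 for Rps13 and 0.18 for Rps3a1. Of these 7 genes, Rpl3l and Rpl22l1 are paralogs.

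Levels per kilobase of transcript, as a mean over the 12 libraries, were highest for Rpl41, the smallest protein of the ribosome, at 791 CPM per kb (591 to 1048). Next came Rpl32 at 769 (434 to 1276) and Rplp0, the base of the stalk, at 761 (452 to 1252) CPM per kb. The ranges of these 3 genes overlap widely, so their order does not exceed the spread between libraries. The order also holds for the counts of the genes alone only. With the counts of the copies added Rps12 was highest, at 1044 CPM per kb against 276 for the gene alone. Rpl41, Rplp0 and Rpl32 then had 931.5, 906 and 784 CPM per kb. At the low end Rpl10l, a retrogene of Rpl10 known from testis, had 0 counts of 555784327 in all libraries, which allows up to 0.0054 CPM (a floor of 3 counts, for counting error only). Rpl39l, a testis paralog of Rpl39, had 4 counts in 2 libraries. Rpl3l, the striated muscle form of Rpl3, reached 0.215 CPM per kb (0.0942 to 0.496).

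The next lowest values belong to genes of which the copies hold most of the counts. Rpl27 had 18.5 CPM per kb and its family, the gene with its copies, 242 CPM per kb. Rpl5 had 24.4 and its family 334 CPM per kb, and Rpl12 had 28.3 and its family 434 CPM per kb. The length used also lowers these values. It was 2045 bases for Rpl5 and 1242 for Rpl12, against 1019 for the Rpl5 copy Gm15500 and 635 for the Rpl12 copy Gm10275. Rpl5 held 7.33% of the counts of its family, Rpl12 6.51% and Rpl27 7.60%, and the Rpl5 transcript was identical to its copy Gm15500 over 1018 aligned bases. Across the list 15 of the 79 genes with copies held less than 50% of their family's counts and 36 held more than 95%, with a median of 93.1%.

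For most families this split was stable. The gene's share varied by less than 5 percentage points between the 12 libraries in 49 families and by more than 20 in 7, those of Rps18, Rpl34, Rps3a1, Rpl29, Rps13, Rpl35a and Rpl3. Rps18, an RNA-binding protein of the head of the small subunit, held 7.24%, 8.89% and 61.2% of its family's counts in untreated +/+ mice. It held 99.6%, 99.5% and 99.5% in untreated +/- mice, 7.04%, 7.64% and 9.25% in treated +/+ mice and 60.6%, 66.1% and 61.5% in treated labelled +/- mice. The shares fell into 3 separate levels, and of the +/+ mice only untreated mouse 3 was at the middle one. The copy Gm10260, annotated as protein-coding, had 6480, 8947 and 6253 counts in untreated +/+ mice and 41, 43 and 76 in untreated +/- mice. A further copy, Gm11361, had 5490, 5908 and 92 counts in the first group and 28, 17 and 45 in the other. In treated mice Gm10260 had 9819, 20036 and 7833 counts in +/+ and 5779, 4755 and 6018 in labelled +/- tumours. Gm11361 had 5793, 13309 and 5044 counts in treated +/+ tumours and 16, 52 and 73 in labelled +/- tumours. The libraries with few Gm11361 counts were thus the 6 of +/- label and untreated +/+ mouse 3.

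The other families split at other levels, and in those of Rps13, Rpl34 and Rps3a1 the gene's share was highest in untreated +/- mice 2 and 3. Rps13, a protein of the small subunit near the subunit interface, held 50.3%, 20.8% and 21.2% of its family's counts in untreated +/+ mice and 49.9%, 89.5% and 91.7% in untreated +/- mice. In treated mice it held 23.9%, 21.0% and 22.8% in +/+ and 86.9%, 60.3% and 54.6% in labelled +/- tumours. Of its copies, Rps13-ps1 had between 2760 and 10766 counts in the 6 +/+ tumours, but 7075, 19 and 49 in untreated +/- and 68, 3138 and 4431 in treated labelled +/- tumours. Rps13-ps2 had 812 and 1045 counts in untreated +/- mice 2 and 3 and 921 in treated labelled +/- mouse 1, the libraries where Rps13-ps1 was lowest, and 0 to 205 in the other 9. Rpl34, a large subunit protein, held 17.5% to 24.4% in all 6 +/+ tumours, 69.6%, 99.2% and 99.3% in untreated +/- tumours and 57.4%, 55.9% and 22.1% in treated labelled +/- tumours. Rpl34-ps1 had 31 and 36 counts in untreated +/- mice 2 and 3 and between 2557 and 9312 in the other 10 libraries. Rps3a1, the working gene for the small subunit protein Rps3a, held 69.8%, 99.3% and 99.5% in untreated +/- tumours and 71.96%, 75.4% and 76.6% in untreated +/+ tumours. In treated mice it held 76.9%, 22.3% and 47.98% in +/+ and 49.4%, 58.6% and 49.99% in labelled +/- tumours. Its copy Rps3a2 had 93 and 137 counts in untreated +/- mice 2 and 3 and between 4193 and 17852 in the other 10 libraries. Rpl29, a small basic protein of the large subunit, held 65.6%, 26.8% and 80.4% in untreated +/+, 37.5%, 81.1% and 27.0% in untreated +/-, 42.6%, 98.3% and 97.7% in treated +/+ and 25.3%, 26.6% and 64.1% in treated labelled +/- tumours, so that all 4 groups overlapped.

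**Figure D3:**
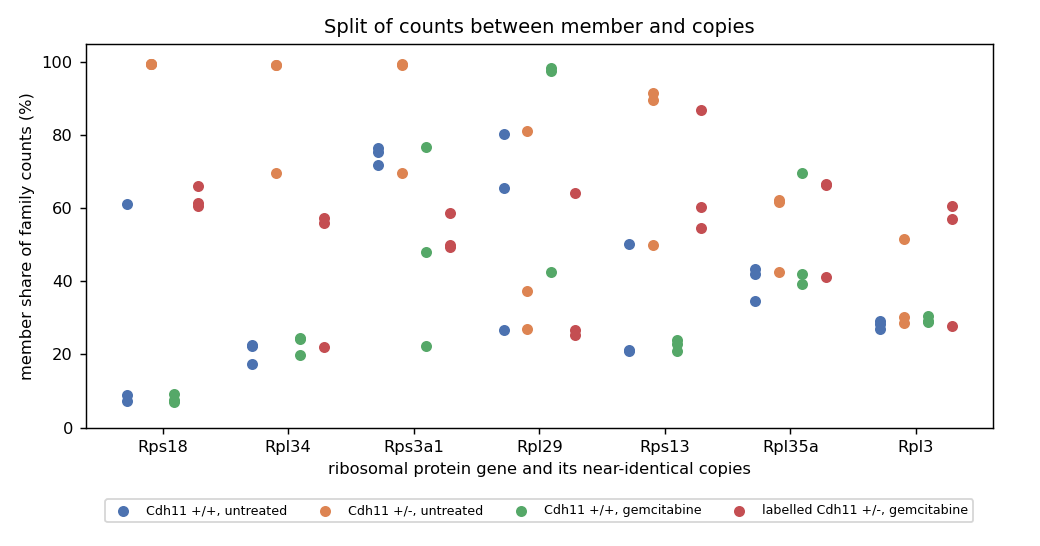
Share of the counts of a family (gene and near-identical copies), in percent, that the deposited values assign to the gene itself, for the 7 families with the widest range, 1 point per mouse and 1 colour per group. Rps18 shows 3 separate levels, at 7.04% to 9.25%, 60.6% to 66.1% and 99.5% to 99.6%, and Rpl34 stays between 17.5% and 24.4% in all 6 +/+ tumours.

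Untreated +/- tumours had higher levels of nearly all these genes than untreated +/+ tumours, without any gene passing the test. The log2 fold change was positive for 78 of 81 genes, with a median of 0.51 against 0.04 over all genes tested. By edgeR's adjusted p 0 members passed (0.0166% of all genes tested did). At an unadjusted p under 0.05 in the same test 22 members were higher and 0 lower, against 5.51% of all genes higher. DESeq2 called 4 members, Rps13, Rpl34, Rpl18 and Rps19 (2.94% of all genes), and limma voom called 1, Rps13 (0.0249%). Every +/- library lay above every +/+ library for 13 of the 81 genes, against 7.36% of all genes. Without untreated +/- mouse 3 the median was 0.31 and 13 members had an unadjusted p under 0.05 and were higher; without mouse 2 of that group the median was 0.70 and 39 did. The fibroblast markers moved the other way: all 10 were lower in +/- tumours, each at an unadjusted p under 0.05 and 0 after adjustment (median log2 fold change -1.32). The summed level of the 14 acinar markers was 9.68 to 603 CPM in +/+ and 6.59 to 33.5 CPM in +/- tumours. By gene 13 of 14 were lower, all 13 at that p (median -8.89), although +/+ mouse 1 had only 9.68 CPM. Also lower were 8 of 8 islet markers (7 at that p) and 10 of 10 myeloid markers (4 at that p). Of the duct epithelium markers 9 of 10 were higher (median 0.221, 2 at that p). None of these markers passed edgeR's adjusted p. The abundant small RNAs 7SL and 7SK took 5.53% to 7.88% of the counts in untreated +/+ and 8.19% to 9.59% in untreated +/- tumours, without overlap, against 8.28% to 8.61% in treated +/+ and 7.26% to 8.52% in treated labelled +/- tumours. Mitochondrial genes took 1.43% to 2.33% in untreated +/+, 2.26% to 3.89% in untreated +/-, 2.44% to 2.90% in treated +/+ and 1.78% to 2.64% in treated labelled +/- tumours. The part of these RNAs and cell types in the ribosomal protein values was not tested.

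Among the small subunit genes all 31 had a positive log2 fold change, with a median of 0.57. Rps19, the gene most often mutated in Diamond-Blackfan anaemia, had 188, 231 and 265 CPM in untreated +/+ tumours and 518, 316 and 435 CPM in untreated +/- tumours. The groups did not overlap, and +/- mouse 2 was the nearest to the +/+ tumours (log2 fold change 0.89 ± 0.25 SE, adjusted p = 0.231 in edgeR's test). Rps27, a zinc-binding protein of the small subunit, had 181, 164 and 226 CPM against 357, 266 and 386 CPM, again without overlap (0.82 ± 0.23 SE, edgeR adjusted p = 0.240). Rps25, which several viruses need for internal ribosome entry, had 172, 179 and 186 CPM against 380, 289 and 238 CPM. Here +/- mouse 3 was the lowest of its group (0.76 ± 0.23 SE). Rps6, the substrate of the S6 kinases, had 229, 262 and 321 CPM against 378, 236 and 368 CPM, so that the groups overlapped (0.27 ± 0.49 SE). Rpsa, which is also known as the laminin receptor, had 507, 591 and 716 CPM against 1096, 479 and 989 CPM, with mouse 2 of the +/- group below all +/+ tumours (0.50 ± 0.39 SE). The SE draws on the spread in all 4 groups, not in the untreated libraries alone. Pooled over the groups, the SD between mice on the log2 CPM scale was 0.66 for Rps6 and 0.53 for Rpsa, against 0.3 for Rps19. For Rps6 treated +/+ mouse 2, at 1067 CPM, lay far from the other mice of its group.

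Of the 43 large subunit genes 41 had a positive log2 fold change, with a median of 0.45. Rpl18 had 185, 220 and 272 CPM in +/+ and 487, 308 and 507 CPM in +/- tumours, with no overlap (log2 fold change 0.95 ± 0.24 SE, edgeR adjusted p = 0.208). Rpl11, which together with Rpl5 and a small ribosomal RNA binds and inhibits Mdm2, had 107, 131 and 150 CPM against 187, 139 and 346 CPM (0.79 ± 0.30 SE). Its partner Rpl5 had 41.1 ± 1.8 CPM (SD, n = 3) in +/+ and 40.2, 44.8 and 87.1 CPM in +/- tumours, where only +/- mouse 3 stood out (0.48 ± 0.29 SE). Rpl13a, also a component of the GAIT complex that silences translation after interferon, had 301, 430 and 500 CPM against 645, 467 and 783 CPM (0.62 ± 0.29 SE). The 2 large subunit genes with a negative value were Rpl29 (-0.49 ± 0.69 SE) and Rpl27 (-0.04). In the stalk, which recruits the elongation factors, Rplp2 had 139, 224 and 258 CPM against 362, 267 and 363 CPM without overlap (0.67 ± 0.25 SE). Rplp0 (0.58 ± 0.37 SE) and Rplp1 (0.53 ± 0.27 SE) overlapped between the groups, since +/- mouse 2 had 614 CPM of Rplp0 and 233 CPM of Rplp1, within or under the +/+ values.

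The largest log2 fold changes in the list came from the genes with an unequal split. Rps13 had 3045, 1604 and 2059 counts in untreated +/+ and 7139, 7576 and 12644 in untreated +/- tumours, a log2 fold change of 1.98 ± 0.28 SE (95% interval 1.36 to 2.60, edgeR adjusted p = 0.0612). The Rps13 family had 6059, 7700 and 9696 counts against 14299, 8461 and 13793, and with the copies summed the value was 0.62 ± 0.26 SE. The family counts of the groups overlap, which the counts of the gene alone do not. Rpl34 had 1109, 1266 and 2222 counts against 5991, 8535 and 14950, a value of 2.65 ± 0.47 SE (edgeR adjusted p = 0.123), and its family 6345, 5637 and 9845 counts against 8610, 8606 and 15059, a value of 0.54 ± 0.26 SE. Rps18 had 959, 1467 and 14283 counts against 27881, 17932 and 36265, a value of 2.35 ± 0.80 SE, and its family 13248, 16501 and 23332 counts against 27986, 18028 and 36431, a value of 0.61 ± 0.35 SE. Without untreated +/+ mouse 3 Rps18 was called, at a log2 fold change of 4.38 (edgeR adjusted p = 0.0197). With copies summed throughout, the median over the 81 genes was 0.47, and 79 were positive.

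**Figure D4:**
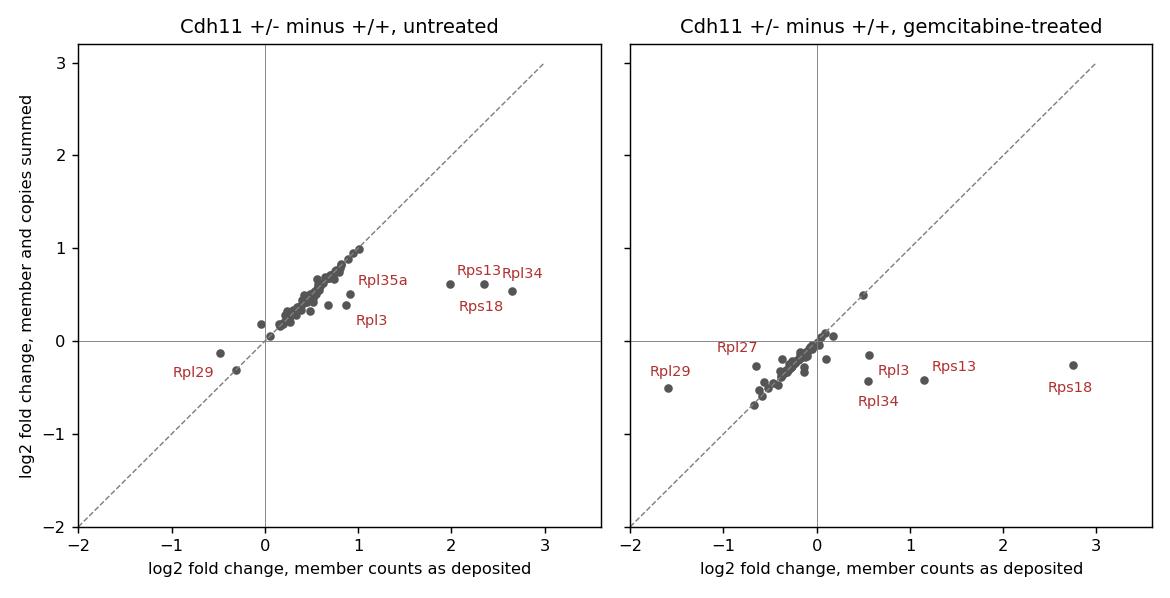
Log2 fold change of the 81 tested genes between genotypes from the counts of the gene alone (horizontal axis) and from the summed counts of the gene and its near-identical copies (vertical axis), in untreated mice (left) and gemcitabine-treated mice (right); the dashed line marks equal values and the genes furthest from it are named. Rps13, Rps18 and Rpl34 lie far to the right of the line in both panels, at family values of 0.62, 0.61 and 0.54 on the left and -0.42, -0.26 and -0.43 on the right.

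In gemcitabine-treated mice most genes had the opposite sign. The log2 fold change was negative for 69 of 81 genes, with a median of -0.19 against -0.03 over all genes. By edgeR's adjusted p 0 members passed (0.00416% of all genes did), and at an unadjusted p under 0.05 Rpl27 and Rpl29 were lower, against 2.89% of all genes, and Rps13 and Rps18 higher, against 4.66%. DESeq2 called 2, Rps13 and Rps18 (1.05% of all genes), and limma voom 0 (0%). The sign of the median rests on 1 library: without treated +/+ mouse 2 it was 0.06. Rps6 shows that library most plainly, with 237, 1067 and 256 CPM in treated +/+ and 281, 382 and 313 CPM in labelled +/- tumours (-0.68 ± 0.49 SE). Of the duct epithelium markers 9 of 10 were lower in labelled +/- tumours (median log2 fold change -0.54, 3 at an unadjusted p under 0.05 in edgeR's test). All 10 T cell markers (median 2.87, 7 at that p), all 10 B and plasma cell markers (3.63, 7 at that p) and all 10 myeloid markers (0.835, 3 at that p) were higher. None of these markers passed edgeR's adjusted p, and their part in the ribosomal protein values was not tested.

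The genes with an unequal split again gave the extremes. Rps18 had 1245, 2775 and 1323 counts in treated +/+ and 12485, 13171 and 13391 in labelled +/- tumours, a log2 fold change of 2.75 ± 0.82 SE (edgeR adjusted p = 0.546). Its family had 17684, 36314 and 14300 counts against 20598, 19919 and 21780, and the value with copies summed was -0.26 ± 0.35 SE. The gene and its family thus gave opposite signs. Rps13 had 2005, 2865 and 2159 counts against 6837, 4883 and 5412, a value of 1.15 ± 0.28 SE (edgeR adjusted p = 0.546), and -0.42 ± 0.26 SE with copies summed. Rpl29 had 2205, 10631 and 8078 counts against 1353, 1550 and 4888, a value of -1.60 ± 0.71 SE, and -0.51 ± 0.27 SE with copies summed. Rpl27, with copies holding most of its counts, had 12.96, 22.2 and 12.3 CPM against 10.03, 9.03 and 11.3 CPM (-0.65 ± 0.29 SE) and -0.27 with copies summed.

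In +/+ mice gemcitabine-treated tumours had higher levels than untreated ones for 79 of 81 genes, with a median log2 fold change of 0.41 against 0.01 over all genes tested. By edgeR's adjusted p 0 members passed (0% of all genes did), and DESeq2 and limma voom called 0 as well (0.521% and 0% of all genes). At an unadjusted p under 0.05 in edgeR's test 12 members were higher and 0 lower, against 4.05% of all genes higher. Every treated library lay above every untreated one for 12 of the 81 genes, against 6.53% of all genes. Without treated mouse 2 the median was 0.12 and 0 members had an unadjusted p under 0.05. Rps25 had 172, 179 and 186 CPM untreated and 266, 355 and 227 CPM treated (0.66 ± 0.23 SE, edgeR adjusted p = 0.559). Rplp1, which extends the stalk from Rplp0, had 200, 243 and 299 CPM against 375, 526 and 370 CPM (0.78 ± 0.27 SE). In neither gene did the groups overlap, and treated mouse 2 was the highest in both. Rps24, a small subunit protein also mutated in Diamond-Blackfan anaemia, had 416, 332 and 349 CPM against 411, 651 and 545 CPM, which overlapped (0.55 ± 0.22 SE). Rps19 had 270, 457 and 331 CPM in treated tumours, all above the untreated ones (0.63 ± 0.25 SE). The 2 genes with a negative value, Rps18 (-1.45 ± 0.78 SE) and Rps3a1 (-0.42 ± 0.35 SE), were 0.48 and 0.37 with copies summed, so that all 81 families were positive. Fibroblast markers were lower in treated +/+ tumours for 10 of 10 genes, with a median log2 fold change of -0.79 and 0 called. Of the duct epithelium markers 8 of 10 were higher (median 0.53, 4 at an unadjusted p under 0.05 in edgeR's test, 0 called). The myeloid markers were lower for 10 of 10 genes (median -0.835, 2 at that p). The part of these cell types in the ribosomal protein values was not tested.

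In mice of +/- label the sign was the other way. Treated tumours had lower levels than untreated ones for 75 of 81 genes, with a median log2 fold change of -0.31 against -0.03 over all genes. By edgeR's adjusted p 0 members passed (0.00831% of all genes did), and DESeq2 and limma voom called 0 (0.754% and 0.00831%). At an unadjusted p under 0.05 in edgeR's test 7 members were lower and 0 higher, against 3.48% of all genes lower. Untreated +/- mice 1 and 3 stand in this comparison as the untreated side: without mouse 3 the median was -0.13 and 2 members were lower at that p, and without mouse 2 it was -0.47 and 24 were. Without any 1 of the other 4 libraries 2 to 4 members were. All 31 small subunit genes were negative, with a median of -0.40, and 40 of 43 large subunit genes were, with a median of -0.24. Rps27 had 357, 266 and 386 CPM untreated and 209, 232 and 208 CPM treated (-0.64 ± 0.23 SE), and Rpl18 487, 308 and 507 CPM against 260, 306 and 269 CPM (-0.64 ± 0.24 SE, edgeR adjusted p = 0.597). In both genes the groups did not overlap, and untreated mouse 2 was the closest to the treated tumours. Rps12, a small subunit protein known from cell competition, had 239, 100 and 224 CPM against 88.1, 111 and 120 CPM, with untreated mouse 2 among the treated values (-0.82 ± 0.33 SE). Rps3a1 had 18403, 27578 and 50041 counts against 14772, 17716 and 14088 (-1.01 ± 0.35 SE) and -0.22 ± 0.30 SE with copies summed. Rpl34 had 4463, 4102 and 1656 counts in treated tumours (-1.49 ± 0.45 SE, edgeR adjusted p = 0.593) and -0.50 ± 0.26 SE with copies summed. Markers of several cell types differed as well. Of the B and plasma cell markers 10 of 10 were higher in treated tumours (median 3.07, 8 at an unadjusted p under 0.05 in edgeR's test), with a summed level of 31.3 to 194 CPM untreated and 104.9 to 2896 CPM treated. Of the myeloid markers 10 of 10 were higher (median 1.08, 7 at that p), from 721 to 1164 CPM untreated and 1609 to 3028 CPM treated, and of the fibroblast markers 9 of 10 (median 0.365). Of the duct epithelium markers 8 of 10 were lower (median -0.46, 0 at that p). No marker passed edgeR's adjusted p, and their part in the ribosomal protein values was not tested.

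The difference of the gemcitabine effects (labelled +/- minus +/+) uses the same 12 libraries as the comparisons above, so its values are those of the 4 groups set against each other and no separate evidence. The difference was negative for 79 of 81 genes, with a median of -0.71 on the log2 scale against -0.07 over all genes. By edgeR's adjusted p 0 members passed (0.00831% of all genes did), limma voom called 0 (0.00416%), and DESeq2 called 2, among them Rpl18 (2.95%). At an unadjusted p under 0.05 in edgeR's test 24 members were lower, against 5.52% of all genes. Without treated +/+ mouse 2 the median was -0.42 and 9 members were lower at that p. Among the smallest p-values were those of Rpl18 (-1.26 ± 0.34 SE, edgeR adjusted p = 0.252), Rps27 (-1.11 ± 0.33 SE), Rps12 (-1.57 ± 0.47 SE) and Rps19 (-1.17 ± 0.35 SE). With copies summed these 4 genes had -1.26, -1.13, -1.43 and -1.15, close to the values of the genes alone.

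For the genotype effect averaged over both treatments 71 of 81 genes were positive, and their median log2 fold change was 0.14 against 0.01 over all genes. Without treated +/+ mouse 2 this median was 0.275 and 14 members were higher at an unadjusted p under 0.05 in edgeR's test. Without untreated +/- mouse 2 it was 0.233 and 11 were, and without untreated +/+ mouse 3 it was 0.22. Without untreated +/- mouse 3, and likewise without treated +/+ mouse 1, it was 0.073. All 10 fibroblast markers were lower in the average (median -0.77, 0 called), and their part in the values was not tested. Rps13 was the only member that passed edgeR's adjusted p, as 1 of 81 (0.0332% of all genes passed), and it rose by 1.57 ± 0.20 SE on the log2 scale (adjusted p = 0.0309). Its levels were 67.1, 37.0 and 40.6 CPM in untreated +/+, 157, 164 and 251 CPM in untreated +/-, 43.8, 66.5 and 51.7 CPM in treated +/+ and 138, 114 and 109 CPM in treated labelled +/- tumours. All 6 libraries of +/- label lay above all 6 of +/+. The call did not hold for the family: with Rps13 and its copies summed the value was 0.10 ± 0.18 SE (edgeR adjusted p = 0.944). The call was lost with a covariate for Xist and Y-linked genes, at a log2 fold change of 1.65 (edgeR adjusted p = 0.696). The call was lost as well with a covariate for acinar markers, at a log2 fold change of 1.36 (edgeR adjusted p = 0.173). It was also lost without any of 7 libraries, at an edgeR adjusted p of 0.096 and 0.0734 without untreated +/+ mice 2 and 3, 0.0794, 0.0709 and 0.12 without treated +/+ mice 1, 2 and 3, and 0.087 and 0.0848 without treated labelled +/- mice 1 and 3. Without untreated +/+ mouse 3 Rps18 was called in its place, at 3.56 (edgeR adjusted p = 0.00171). DESeq2 called 3 members, Rps13, Rpl34 and Rps18 (1.29% of all genes), and limma voom called Rps13 (0.0249%). Members higher at an unadjusted p under 0.05 in edgeR's test were 4, these 3 and Rpl3, against 3.7% of all genes. With copies summed Rpl34 went from 1.60 ± 0.32 SE to 0.06, Rps18 from 2.55 ± 0.57 SE to 0.18 and Rpl3 from 0.72 ± 0.31 SE to 0.12. Rpl35a, a large subunit protein of whose copies at least 4 have identical counts, had a value of 0.55 ± 0.26 SE.

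The 4 tested paralogs are given beside their partners, and Rpl3l among them had few counts. Their median log2 fold changes were 0.13 for genotype in untreated mice, -0.02 for genotype in treated mice, 0.33 for gemcitabine in +/+ mice and 0.18 for gemcitabine in mice of +/- label. Rpl22l1, which can stand in for the large subunit protein Rpl22, had 30.8, 30.6 and 32.3 CPM in untreated +/+, 17.03, 29.5 and 65.6 CPM in untreated +/-, 26.8, 79.7 and 17.4 CPM in treated +/+ and 29.3, 50.4 and 30.3 CPM in treated labelled +/- tumours. The 4 groups overlapped, and treated +/+ tumours alone spanned 17.4 to 79.7 CPM. Rpl22 itself had 82.5 to 131 CPM in untreated +/+ and 92.4 to 152 CPM in untreated +/- tumours (0.38 ± 0.25 SE). Rps27l, a p53 target, had 21.4 ± 1.8 CPM in untreated +/+ and 22.2 ± 6.5 CPM in untreated +/- tumours (SD, n = 3; log2 fold change 0.05 ± 0.32 SE), where its partner Rps27 had 0.82 ± 0.23 SE. Rpl7l1, a nucleolar relative of Rpl7, had 0.22 ± 0.29 SE and Rpl7 0.40 ± 0.24 SE. Rpl3l had -0.32 ± 0.58 SE and Rpl3 0.87 ± 0.44 SE, and of the X-linked partners Rpl10 had 0.40 ± 0.23 SE and Rps4x 0.35 ± 0.25 SE. These differences between paralog and partner were not tested.

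Other genes needed to make ribosomes were set beside the list, with lists that include ribosomal proteins outside the symbol pattern. No gene of any of them passed edgeR's adjusted p in any comparison. The 5 ribosomal proteins under other symbols or forms, such as Fau, Rack1, Rpl36al and Rps27rt, had medians of 0.60, -0.45, 0.60 and -0.51 in the order genotype untreated, genotype treated, gemcitabine in +/+ and gemcitabine in mice of +/- label. Rps27rt is also a near-identical copy of Rps27 (100% identity) and part of its family, so this list is not separate from the members. The 43 ribosome biogenesis factors, which process ribosomal RNA and assemble the subunits, had medians of 0.44, -0.22, 0.61 and -0.10. For gemcitabine in +/+ mice all 43 were positive, and 17 were higher at an unadjusted p under 0.05 in edgeR's test, against 4.05% of all genes. The 16 genes of RNA polymerase I and its factors, which transcribe ribosomal DNA, had 0.29, -0.15, 0.42 and -0.08. The 15 host genes of small nucleolar RNAs, whose RNAs guide the modification of ribosomal RNA, had 0.67, -0.37, 0.57 and -0.42. The 26 translation factors and other genes with a TOP motif had 0.22, -0.19, 0.31 and -0.17. Proteins of the other ribosome of the cell gave smaller values, with 0.21, -0.07, 0.26 and -0.05 for 78 mitochondrial ribosomal proteins, and 69 nuclear subunits of oxidative phosphorylation had 0.10, -0.05, 0.18 and -0.02. By the same definition a pyrimidine tract stood at 8 of 20 translation factor start sites (40%) and 7 of 37 biogenesis factor start sites (18.9%).

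**Figure D5:**
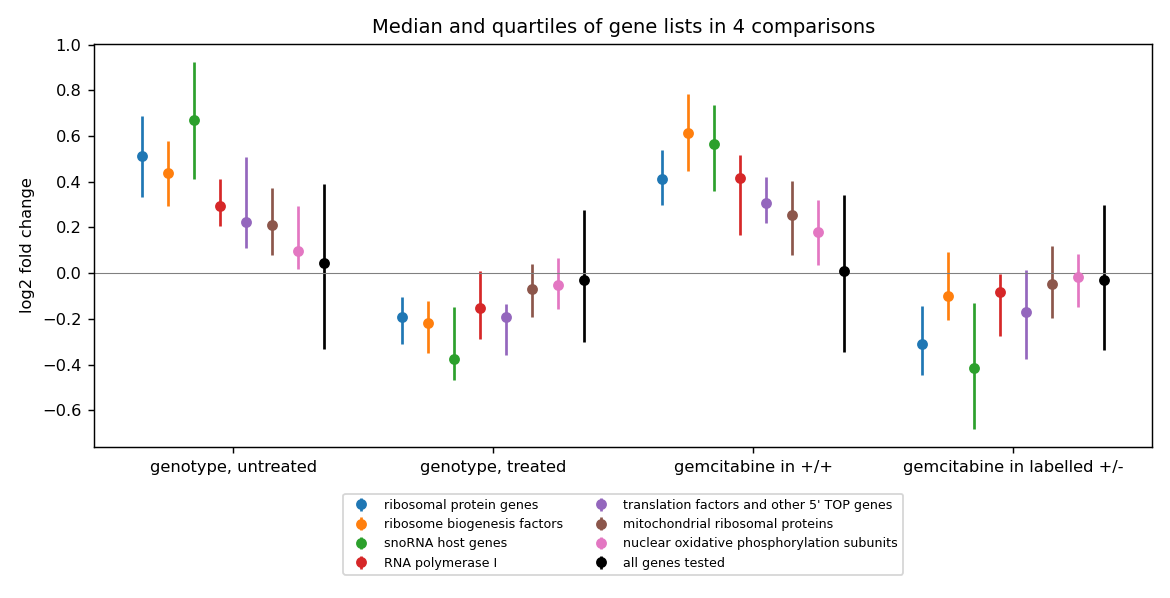
Median log2 fold change (points) with quartiles (bars) of 7 gene lists and of all 24065 genes tested, in 4 comparisons that share their control groups. The ribosomal protein genes, biogenesis factors and small nucleolar RNA hosts have medians of 0.51, 0.44 and 0.67 for genotype in untreated mice and of 0.41, 0.61 and 0.57 for gemcitabine in +/+ mice, above those of all genes.

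Single genes upstream and downstream of ribosome production are given here for the genotype average. Myc, a driver of ribosomal protein and biogenesis genes, had a log2 fold change of -0.16 ± 0.31 SE and its partner Max -0.20 ± 0.14 SE. The average joins opposite signs here. Over the 4 genes of the Myc family list the median was 0.31 for genotype in untreated and -0.60 in treated mice. It was 0.62 for gemcitabine in +/+ mice, -0.40 in mice of +/- label and -0.18 for the average. Mdm2, the p53 inhibitor that free Rpl5 and Rpl11 bind, had -0.27 ± 0.12 SE, and the p53 target Zmat3 -0.37 ± 0.17 SE. The 10 genes of p53, its regulators Mdm2 and Mdm4 and p53 targets had medians of -0.20 and -0.36 for genotype in untreated and in treated mice, and of -0.316 for the average, in which 9 of 10 were negative. Of the biogenesis factors Pes1 had 0.39 ± 0.18 SE, of polymerase I Polr1a 0.35 ± 0.18 SE, of the mitochondrial ribosome Mrps24 0.72 ± 0.23 SE and Mrps12 0.59 ± 0.19 SE (edgeR adjusted p = 0.462), and of the translation factors Eif3k 0.30 ± 0.13 SE. None of these genes passed edgeR's adjusted p.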

How the data were processed

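The authors deposited expected counts for each gene as whole numbers, made by RSEM against GRCm38, per the submitters' processing notes. Where a read maps to more than 1 gene, RSEM splits it among them by estimated shares. The RSEM version, aligner, annotation release and strand setting were not given in the sources used here, and the labels' protocols name a stranded kit. Groups and replicate numbers came from the sample titles. Each library was 1 of 3 mice per group, and p-values measure the spread between these mice. Gene IDs were looked up in GENCODE M21 (GRCm38) for symbols, positions and transcripts (52489 of 52636 matched) and promoters were those of RefSeq on GRCm38.p6.

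The gene test was edgeR 4.0.16 under R 4.3.3. It used filterByExpr, TMM factors (0.897 to 1.093) and glmQLFit with robust estimates, in which all 12 libraries entered and each group had its mean. The biological coefficient of variation was 46.4%. Benjamini-Hochberg adjustment ran over all 24065 genes with a threshold of 0.05. CPM values are TMM-scaled, except the summed levels of markers, which are scaled to the total counts of the library alone. Levels per kb use the shortest principal protein-coding transcript, and log2 CPM has a prior count of 2. Copies were found with blastn 2.17.0, sense strand only. The test was checked on simulated data in which each gene varied independently. Shifts of the whole list in a library, as seen here, were not simulated. Alternatives were DESeq2 1.42.0 and its size factors, limma 3.58.1 with voom, upper quartile factors, protein-coding genes only, no filter, only the groups compared, covariates for acinar markers and for Xist against Y-linked genes, a replicate block, summed copies, and leaving out each library. The fit with copies summed and the replicate block was chosen after seeing the data.

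Named members are every called one or, where fewer than 5 were called, the 5 with the smallest p in a comparison; the 5S RNP, stalk and paralog genes with their partners, Rpsa, Rps6, Rps13, Rps18, Rpl13a and Rpl34; the 3 highest and 3 lowest levels per kb; and the 5 families whose split varied most. Of each related list up to 4 genes lowest in p for the genotype average could be named. Rpl12, Rpl21 and Rpl35a stand outside this rule and were chosen after their values were seen. Some genes that the rule names are not reported here. The members and all lists were chosen with earlier results of these data known.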

Additional observations from a re-analysis of the deposited data

How the results depend on the processing

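The median log2 fold change of the 81 genes was recomputed 118 times in all. Its sign changed in 1 comparison, genotype in treated mice, where leaving out single libraries gave -0.333 to 0.058. For genotype in untreated mice the range was 0.314 to 0.698, for gemcitabine in +/+ mice 0.122 to 0.584, in mice of +/- label -0.47 to -0.126, for the difference of effects -0.871 to -0.423 and for the genotype average 0.073 to 0.275. For genotype in untreated mice 0 members were called; without a filter on low counts and with limma voom 1 was, with DESeq2 4, and leaving out each library 0 to 1. DESeq2 called 2 for genotype in treated mice and 2 for the difference of effects, against 0 in each. For the genotype average 1 was called; DESeq2 called 3, leaving out each library gave 0 to 1, and 0 were called with the acinar covariate, with the Xist and Y covariate or with copies summed. Whether equal replicate numbers mark a pairing or batch is not known. Deviations of same-numbered libraries correlated between -0.247 and 0.136, which cannot exclude either. With the replicate block 0 were called (Rps13 edgeR adjusted p = 0.173), and with copies summed and the replicate block 0. Rps13 for genotype in treated mice was -0.415 with copies summed and -0.41 with the replicate block as well, and Rps18 -0.258 and -0.227, against positive values for the genes alone. In the Rps13 genotype average the edgeR adjusted p ranged from 0.00564 without a filter to 0.954 with copies summed and the block. For 30 pairs of a named gene and a comparison 590 values were recomputed, of which 561 kept direction and side of the threshold, 13 passed it newly, 12 no longer did and 4 changed sign. Outside these pairs the sign also changed with copies summed for Rpl34 in treated mice, from 0.55 to -0.43, and for Rps18 (-1.45 to 0.48) and Rps3a1 (-0.42 to 0.37) with gemcitabine in +/+ mice. Depth did not limit the abundant members; Rpl3l, Rpl10l and Rpl39l had too few counts for small differences to be detectable. Causes of these changes were not tested.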
